A study of Homo sapiens with 12 samples.

Results

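Putting HKDC1 back into HKDC1 knockout cells was examined as a within-pair change over 8 of the 12 libraries of the series. The 8 libraries form 4 pairs, each a rescue library (KO_RES in the labels) and the knockout library (KO) with the same line and number in its title: KO1 number 1, KO1 number 2, KO2 number 1 and KO2 number 2. They are called here line 1 number 1, line 1 number 2, line 2 number 1 and line 2 number 2, and every difference is rescue minus knockout of the same pair. All libraries are mRNA of PLC/PRF/5, an established human hepatoma cell line, and the remaining 4 are controls, which enter no test and are given as levels. Both groups of a pair share the edited line, so the knockout of HKDC1 that the labels give is common to all 8 libraries, and the groups differ by the labelled return of the gene. Knockout is used below as the label of a library, since HKDC1 mRNA in the 2 line 1 libraries labelled knockout was within the range of the controls. Nothing in the labels gives the kind or position of the edit, the vector or promoter of the rescue, or whether a line is 1 clone, and no oxygen level is given although the series title names hypoxia. Separate cultures are not stated either, so the p-values rest on a spread between libraries that may be technical.

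HKDC1 is a member of the hexokinase family, the enzymes that trap glucose in the cell by phosphorylating it to glucose 6-phosphate. Hepatoma cells usually carry out this step with HK2, and HKDC1 is also raised in many liver cancers. Glucose 6-phosphate feeds glycolysis, glycogen, the pentose phosphate pathway and hexosamines, and it is also the signal read by the transcription factors MondoA and ChREBP, which drive glucose-responsive genes.

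The compared libraries held between 36075411 and 68040103 counts over 57820 listed genes, and 18293 genes passed the filter on low counts. In the genotype field both libraries of each pair carry the same genotype, number 1 as knockout and number 2 as rescue, so the titles were used. Levels are CPM (library-scaled counts, edgeR's TMM), and are compared only for 1 gene across libraries. The hepatoma markers KRT8 and KRT18 were between 1132 and 2245 CPM, while AFP was at 7.45 to 77.0 CPM and ALB at 16.0 to 65.1 CPM. Of the blood markers, PTPRC, CD3E and HBB were at no more than 3 counts in each of the 8 libraries, but LYZ was at 271 to 758 CPM. Of 5 fibroblast markers only COL1A2 was likewise at no more than 3 counts, and their summed level reached 9.26 CPM. Of the 3 endothelial markers matched only KDR was, and their summed level reached 1.03 CPM.

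HKDC1 rose in every pair, from 157 to 1268 CPM and from 149.7 to 1595 CPM in line 1, and from 92.6 to 520.0 CPM and from 50.1 to 632 CPM in line 2. All 4 rescue libraries lay above all 4 knockouts, with means of 1004 ± 514 CPM in rescue and 112 ± 50.4 CPM in knockout (SD, n = 4 each). The fitted log2 fold change was 3.15 (SE 0.19, edgeR quasi-likelihood test with the pair as a block, adjusted p = 0.00346). The 4 controls were at 157, 154, 183 and 124 CPM, on a scale fitted over 12 libraries that gives the 8 libraries 0.970 to 0.992 times the values above. The rescue exceeded its knockout in every pair and the controls in both lines. The libraries labelled knockout of line 1 lay within the range of the controls and those of line 2 below it, so the mRNA level does not check the knockout label in line 1. The rescue effect on HKDC1 did not pass as different between the lines (line 2 minus line 1, -0.14, SE 0.33, adjusted p = 0.902). HKDC1 missed the threshold without the pair of line 1 number 2 (3.05, adjusted p = 0.0743) and with all 12 libraries in 3 groups (3.15, adjusted p = 0.156).

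Of the other hexokinases, HK2 was lower in each rescue library than in its knockout, and HK1 was not. HK2, the hexokinase typical of tumour cells, went from 16.1 to 4.34 CPM and from 22.9 to 8.15 CPM in line 1, and from 27.6 to 19.0 CPM and from 41.3 to 24.2 CPM in line 2. Rescue and knockout libraries overlapped, since both knockouts of line 1 lay below the highest rescue of line 2. The HK2 log2 fold change of -1.14 (SE 0.21) did not pass over all genes in edgeR (adjusted p = 0.134), and passed with DESeq2 and the same pair block (-1.16, adjusted p = 2.18e-05). HK1, the hexokinase of most tissues, was between 19.5 and 31.7 CPM in all 8 libraries, at a difference of -0.04 (SE 0.08, adjusted p = 0.874). HK3, typical of white blood cells, did not pass the filter, with at most 0.239 CPM in any library.

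Only 8 of 18293 genes, 0.0437%, passed in the paired test, 5 of them higher in rescue (0.0273%) and 3 lower (0.0164%). Before adjustment 2510 genes had p under 0.05, 1155 higher and 1355 lower, and the common biological coefficient of variation within pairs was 13.9% with 3 residual degrees of freedom. DESeq2 with the same pairs called 517 genes, 2.83% of those tested, 240 higher (1.31%) and 277 lower (1.51%), and its calls held all 8. No gene passed in edgeR without the pair of line 1 number 2 (1527 at p under 0.05 before adjustment) or without the pair block (372), and 61 passed without line 2 number 2, all 8 among them. Counting signs alone, 4 pairs cannot go below p = 0.125 in a two-sided exact sign test.

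**Figure D1:**
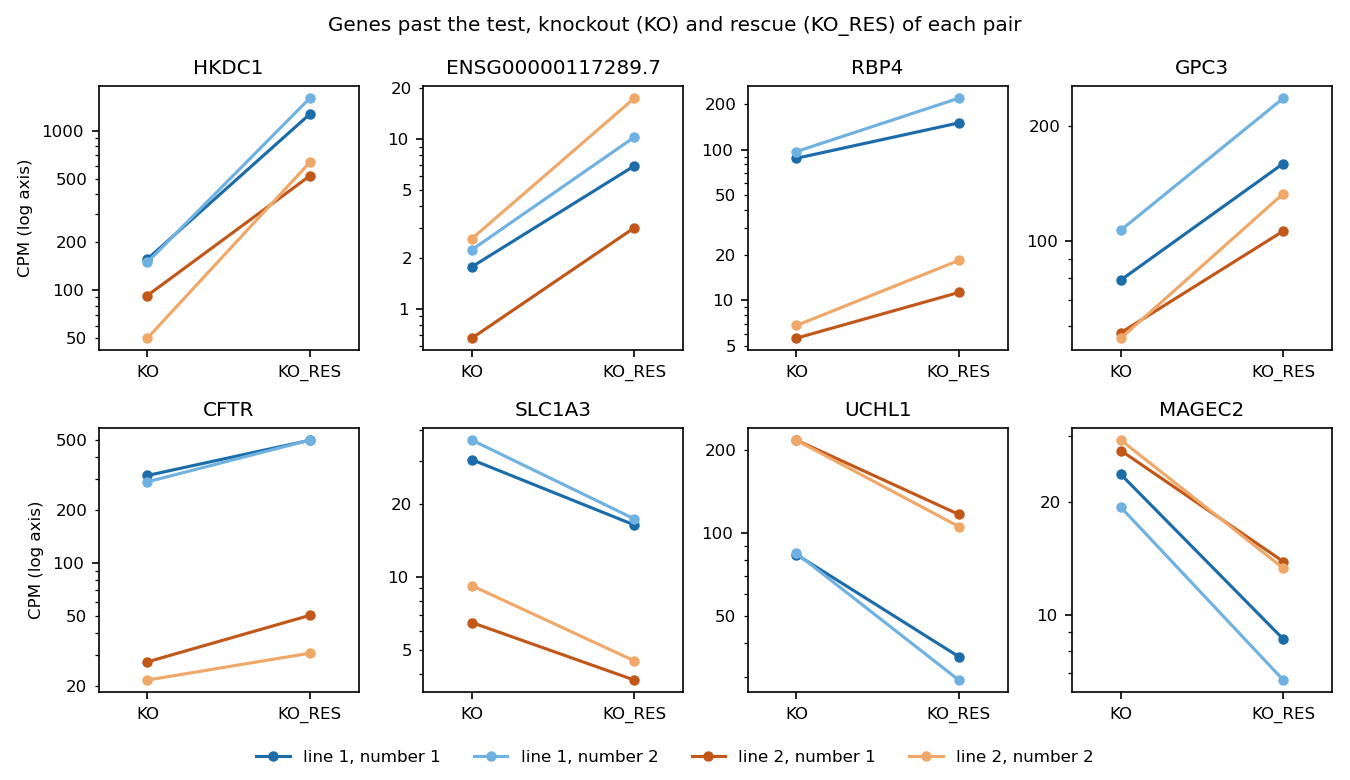
Level in CPM (log axis) of the 8 genes past the paired test, in the knockout (KO) and the rescue (KO_RES) library of each pair, 1 line per pair. Every line of a gene slopes the same way, although line 1 and line 2 start from levels as far apart as 316 and 21.5 CPM for CFTR.

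GPC3, an oncofetal heparan sulfate proteoglycan used as a marker of hepatocellular carcinoma, rose in every pair. It went from 79.1 to 159 CPM and from 107 to 236 CPM in line 1, and from 57.6 to 106 CPM and from 55.8 to 133 CPM in line 2. The ranges of the groups overlapped, but each pair moved by between 0.88 and 1.25 on the log2 scale (fold change 1.07, SE 0.08, adjusted p = 0.00589). Controls 1 and 2 were at 287 and 282 CPM and controls 3 and 4 at 78.2 and 91.1 CPM.

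RBP4, the retinol carrier that the liver secretes into blood, rose from 87.7 to 151 CPM and from 97.2 to 219.6 CPM in line 1. In line 2 it rose from 5.61 to 11.3 CPM and from 6.81 to 18.4 CPM, each library far below its counterpart of line 1. The log2 fold change was 1.09 (SE 0.11, adjusted p = 0.0222), and the lines' effects did not pass as different (0.25, adjusted p = 0.654). The controls were at 167, 171, 12.6 and 19.6 CPM.

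CFTR, the chloride channel of secretory epithelia, rose from 316 to 501 CPM and from 290.3 to 502 CPM in line 1, and from 27.3 to 50.3 CPM and from 21.5 to 30.6 CPM in line 2. This was the smallest of the called rises (0.71, SE 0.08, adjusted p = 0.0461), and it missed the threshold with RLE scaling (adjusted p = 0.0507) and with unstranded counts (adjusted p = 0.0846). CFTR was at 1.71 to 7.67 CPM in the controls, below every knockout library, so that the rescue libraries lay farther from the controls than the knockouts did.

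The fifth gene that rose is listed as ENSG00000117289.7, an identifier that no table used here pairs with a symbol. It went from 1.76 to 6.93 CPM and from 2.22 to 10.2 CPM in line 1, and from 0.671 to 2.99 CPM and from 2.58 to 17.3 CPM in line 2. Every rescue library lay above every knockout, and its log2 fold change of 2.29 was the largest of the called genes after HKDC1 (SE 0.17, adjusted p = 0.00589).

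MAGEC2, a cancer-testis antigen of the X chromosome, fell in every pair. It went from 23.7 to 8.61 CPM and from 19.4 to 6.69 CPM in line 1, and from 27.5 to 13.9 CPM and from 29.3 to 13.3 CPM in line 2. All rescue libraries lay below all knockouts (-1.27, SE 0.11, adjusted p = 0.016), and the controls were at 1.51, 1.23, 8.85 and 9.18 CPM.

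UCHL1, a ubiquitin hydrolase typical of neurons that many tumours express, fell from 83.7 to 35.6 CPM and from 84.6 to 29.3 CPM in line 1, and from 218 to 117 CPM and from 218 to 106 CPM in line 2. The line 2 rescues stayed above the line 1 knockouts, so the groups overlapped while each pair fell (-1.17, SE 0.10, adjusted p = 0.016). The controls were at 252, 252, 73.8 and 66.5 CPM, high in controls 1 and 2 and low in controls 3 and 4.

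SLC1A3, a glutamate and aspartate importer, fell from 30.3 to 16.4 CPM and from 36.4 to 17.3 CPM in line 1, and from 6.51 to 3.78 CPM and from 9.22 to 4.53 CPM in line 2 (-0.95, SE 0.09, adjusted p = 0.0222). The controls were at 1.79 to 7.31 CPM, so the rescues of line 1 stayed above them. MAGEC2, UCHL1 and SLC1A3 each missed the threshold without either pair of line 1 or without line 2 number 1, with adjusted p between 0.0582 and 0.533. GPC3, RBP4 and ENSG00000117289.7 missed it without line 1 number 2 or without line 2 number 1, with adjusted p between 0.0582 and 0.455. CFTR missed it without either pair of line 1 or without line 2 number 1, with adjusted p between 0.209 and 0.533.

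A further 11 genes higher and 12 lower in rescue are named that did not pass in edgeR. They were taken by the smallest p among genes with one sign in all 4 pairs, to reach 15 named genes in each direction. All of them passed with DESeq2, which called 517 genes from the same counts and pairs. Since they were picked on these libraries, that is no separate support. Among those higher in rescue, IDH2, the mitochondrial NADP-dependent isocitrate dehydrogenase, went from 129 to 187 CPM and from 172 to 234 CPM in line 1, and from 93.7 to 135 CPM and from 166 to 246 CPM in line 2. Its log2 fold change of 0.52 (SE 0.06) was nearly the same in each pair, between 0.45 and 0.57, with an adjusted p of 0.0692. CPS1, the entry enzyme of the urea cycle, was at 2698 and 3574 CPM in the line 1 knockouts and 3860 and 4892 CPM in their rescues, and at 858 and 930.5 CPM against 1255 and 1295 CPM in line 2 (0.50, SE 0.08, adjusted p = 0.125). TFPI, an inhibitor of the coagulation cascade, differed by 0.52 (adjusted p = 0.109), and MBTPS2, the site-2 protease that releases SREBP transcription factors by 0.47 (adjusted p = 0.125). The lysosomal protein PLBD2 (0.56), the glutathione-binding LANCL1 (0.50), the neuronal receptors ROBO2 (0.66) and LINGO1 (1.04), RIPOR1 (0.66) and the sulfotransferase SULT1C4 (0.60) completed these, with adjusted p between 0.109 and 0.125.

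Among those lower in rescue, PFKP, the platelet isoform of phosphofructokinase in glycolysis, went from 152 to 97.7 CPM and from 145 to 98.9 CPM in line 1, and from 72.9 to 60.1 CPM and from 125 to 75.2 CPM in line 2 (-0.55, adjusted p = 0.125). NQO1, a quinone reductase controlled by NRF2, went from 335 to 210.2 CPM and from 343 to 211 CPM in line 1, and from 245 to 203 CPM and from 268 to 184 CPM in line 2, with no overlap of the groups (-0.55, adjusted p = 0.126). ETNPPL, a phospholyase of ethanolamine phosphate found in liver, was at 21.5 against 4.50 CPM and 28.1 against 8.70 CPM in line 1, and at 6.56 against 3.76 CPM and 9.73 against 3.38 CPM in line 2 (-1.58, adjusted p = 0.109). MAGEA1 (-1.42) and CT83 (-0.92), further tumour antigens of the X chromosome, were lower in every rescue than in its knockout, MAGEA1 going from 5.14 to 3.01 CPM and from 5.44 to 1.63 CPM in line 2. The others were the annexin ANXA1 (-0.65), the Golgi protein GOLM1 (-0.47), thrombospondin THBS1 (-0.77), the forkhead factor FOXQ1 (-1.11), ARHGAP9 (-1.10), the aromatic amino acid decarboxylase DDC (-1.23) and the amino acid transport partner CLTRN (-1.11), with adjusted p between 0.109 and 0.125.

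**Figure D2:**
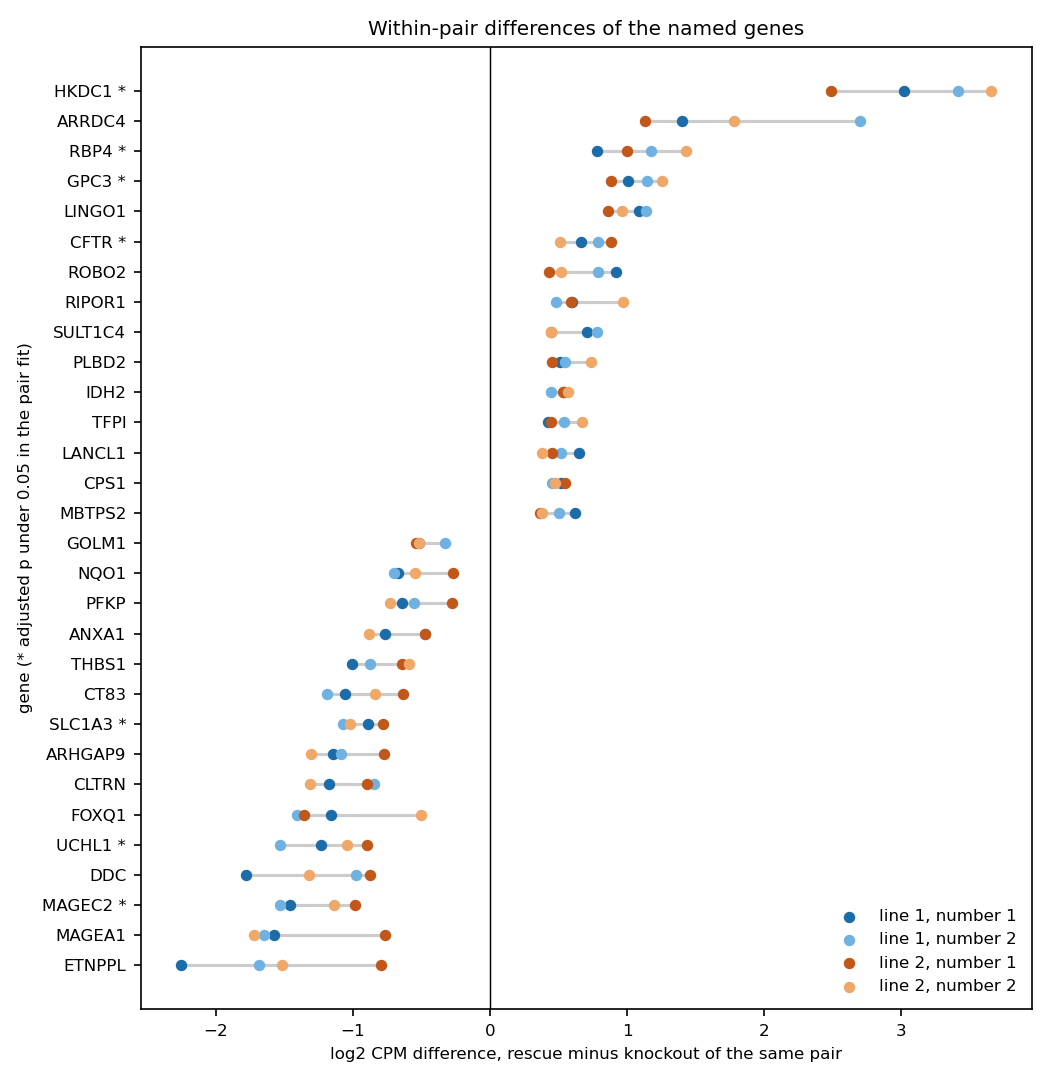
Difference in log2 CPM, rescue minus knockout, of each pair (points, coloured by line and number) for the named genes with a symbol and one sign in all 4 pairs; an asterisk marks adjusted p under 0.05. HKDC1 lies between 2.49 and 3.66, while most other genes lie within 2 log2 units of 0.

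ARRDC4, an arrestin-domain protein whose gene is a textbook target of MondoA and ChREBP, was higher in each rescue than in its knockout but did not pass in edgeR. It went from 0.735 to 2.001 CPM and from 0.550 to 3.77 CPM in line 1, and from 1.60 to 3.55 CPM and from 2.94 to 10.2 CPM in line 2, against 4.003 to 5.42 CPM in the controls. The knockouts of both lines thus lay below the controls, and the rescues lay on both sides of them. The difference of 1.74 (SE 0.255) had an adjusted p of 0.125 in edgeR and 4.21e-07 with DESeq2. AFP, alpha-fetoprotein, the fetal counterpart of albumin and the classic serum marker of liver cancer, was named after its values were seen. It went from 8.31 to 31.7 CPM and from 7.45 to 77.0 CPM in line 1, and from 19.9 to 53.4 CPM and from 16.1 to 27.6 CPM in line 2, with all rescues above all knockouts (1.84, adjusted p = 0.136). The promoters of both are shown because both genes were higher in the rescue of every pair and are known to answer to different factors: the 250 bases before the start, from RefSeq (GRCh38.p14), written 5′ to 3′ on the gene's strand. ARRDC4 lies on the plus strand at chr15:97960453-97960702 and AFP on the plus strand at chr4:73435971-73436220. Capitals mark CACGTG (an E-box, an element of the sites that MondoA and ChREBP bind with their partner MLX) and CCAAT in ARRDC4, and TATAAA and CCAAT in AFP, on either strand.
ARRDC4: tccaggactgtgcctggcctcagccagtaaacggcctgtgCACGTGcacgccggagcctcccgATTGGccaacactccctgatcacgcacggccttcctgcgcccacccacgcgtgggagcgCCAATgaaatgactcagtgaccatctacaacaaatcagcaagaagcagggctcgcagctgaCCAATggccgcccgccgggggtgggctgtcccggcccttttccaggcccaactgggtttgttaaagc
AFP: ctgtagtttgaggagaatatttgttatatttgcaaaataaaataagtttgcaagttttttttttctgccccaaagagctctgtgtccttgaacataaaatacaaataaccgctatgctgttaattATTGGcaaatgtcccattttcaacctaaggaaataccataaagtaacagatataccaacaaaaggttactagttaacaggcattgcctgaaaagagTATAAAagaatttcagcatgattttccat
The ARRDC4 window holds 1 CACGTG, starting 210 bases before the start, and 3 CCAAT matches, starting at -187, -128 and -67. CACGTG is present on either strand in 6.34% of the 35116 promoters of the table over the same length, and CCAAT in 32.0%. The AFP window holds 1 TATAAA, starting at -29, which 10.7% of promoters hold, and 1 CCAAT match at -125, and it has 1 CG dinucleotide where the median promoter has 11. Such matches describe the letters only. Of 9 genes on the MondoA and ChREBP list, 8 were matched by symbol and tested, and 2 of these were higher in all 4 rescues and 1 lower, beside 11.9% and 12.5% of all genes. TXNIP, a textbook target of the same factors, was the member not matched by symbol. Whether it is among the identifiers listed without a symbol was not determined, so its level is not given and its absence is not a result. Identifiers without a symbol, ENSG00000117289.7 among them, could not enter any list, so these counts cover the matched members only. The other 1 higher was the triose kinase TKFC (0.15, adjusted p = 0.437), while the transcription factors MLXIP (0.07) and MLXIPL (-0.08) had mixed signs.

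The rule of one sign in all 4 pairs was met by 2175 genes that were higher in rescue, 11.9% of those tested, and by 2291 that were lower, 12.5%. Requiring at least 1.5-fold in each pair left 28 genes higher (0.153%) and 93 lower (0.508%), of which 4 and 3 passed the paired test. DESeq2 called 13 of the 28 as higher and 48 of the 93 as lower, beside 1.31% and 1.51% of all genes. Most were rare transcripts: 10 of the 28 and 34 of the 93 had a mean of at least 2 CPM. Rescue and knockout libraries did not overlap for 12 of the 28 and 32 of the 93, where over all genes 0.76% had one sign and no overlap with rescue higher and 0.913% with rescue lower. The 28 and 93 were selected on these same differences, so their calls and lack of overlap are no separate support. At the edge, TUBB4A was just inside with 0.59 to 0.65 in the 4 pairs and FAM20A just outside with a smallest difference of 0.58, and THBS1 was just inside with -0.59 and RFPL4B just outside with -0.57.

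From the 93 genes lower by 1.5-fold in each pair, 3 were named after their values were seen. TFF1, a trefoil peptide of gastric mucus, was at 2.39 and 2.44 CPM in the line 1 knockouts and at 0.240 and 0.146 CPM in their rescues, and at 1.23 and 2.29 CPM against 0.480 and 0.671 CPM in line 2 (-2.41, adjusted p = 0.134). AGR2, a protein disulfide isomerase of mucus-secreting cells, went from 51.7 to 15.9 CPM and from 65.7 to 10.9 CPM in line 1, and from 26.02 to 17.0 CPM and from 34.9 to 16.8 CPM in line 2 (-1.48, adjusted p = 0.136). GPX2, the gastrointestinal glutathione peroxidase, went from 21.4 to 4.08 CPM and from 20.5 to 3.48 CPM in line 1, and from 75.1 to 49.9 CPM and from 72.2 to 23.75 CPM in line 2 (-1.72, adjusted p = 0.134). In these 3 genes the differences of line 1 were larger than those of line 2, which held for 74 of the 93. Differences were more spread in line 1 over all genes too, with SDs of 0.60 and 0.53 against 0.37 and 0.48 in line 2. Over the 93, the median log2 difference was -1.46 in line 1 and -1.005 in line 2. None of TFF1, AGR2 and GPX2 passed the test of a difference between the lines (adjusted p between 0.109 and 0.165).

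Genes of inflammation were mostly lower in rescue. Of 12 tested members of a list of NF-kB targets and chemokines, 8 were lower in all 4 rescues and 0 higher, beside 12.5% and 11.9% of all genes, and all 12 had a negative fold change (median -0.47, against -0.0036 over all genes). No member passed in edgeR, with adjusted p of 0.146 or more, and 7 passed as lower with DESeq2, beside 1.51% of all genes. SOD2, the mitochondrial superoxide dismutase, went from 729.8 to 512 CPM and from 653 to 582 CPM in line 1, and from 559 to 429 CPM and from 509 to 360.3 CPM in line 2 (-0.39, adjusted p = 0.146). ICAM1, the adhesion molecule for leukocytes, was lower in rescue by between 0.21 and 0.41 on the log2 scale (-0.32, adjusted p = 0.151). The feedback inhibitors NFKBIA (-0.61) and TNFAIP3 (-0.71) and the apoptosis inhibitor BIRC3 (-0.59) differed more unevenly, TNFAIP3 going from 104.6 to 39.9 CPM in line 1 number 1 and from 45.8 to 38.6 CPM in line 2 number 1. The neutrophil chemokine CXCL8 had mixed signs (-0.18). The list's medians were -0.52 and -0.34 in the pairs of line 1 and -0.27 and -0.72 in those of line 2.

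NRF2 targets and interferon-stimulated genes were lower mainly in the pairs of line 1. Of 15 tested NRF2 targets, the genes of antioxidant defence, 5 were lower in all 4 rescues and 0 higher, beside 12.5% and 11.9% of all genes. All 15 were lower in both pairs of line 1, where 32.7% of all genes were. In line 2, 5 were lower in both pairs, beside 28% of all genes, and the pair medians ran from -0.67 and -0.61 in line 1 to -0.32 and 0.20 in line 2. AKR1C2, an aldo-keto reductase of steroid metabolism, went from 208 to 56.5 CPM and from 267 to 89.8 CPM in line 1, and from 42.1 to 26.2 CPM and from 58.2 to 52.8 CPM in line 2, and its rescue effect differed between the lines (1.32, adjusted p = 0.0341). Of 14 tested interferon-stimulated genes, 3 were lower in all 4 rescues and 13 in both pairs of line 1, with pair medians of -0.65 and -0.66 in line 1 and 0.13 and -0.04 in line 2. OAS1, the sensor that makes 2′-5′ oligoadenylate, went from 21.4 to 8.39 CPM and from 26.7 to 10.6 CPM in line 1, and from 41.6 to 37.2 CPM and from 61.0 to 45.2 CPM in line 2, and the effects differed (1.04, adjusted p = 0.0341).

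Cell cycle genes separated 1 pair from the other 3. Of 21 tested cell cycle genes, 21 were higher in both rescues of line 1, where 34.2% of all genes were, and 0 were higher in both of line 2, where 27.2% were. The medians were 0.49 and 0.28 in line 1, 0.18 in line 2 number 1 and -0.66 in line 2 number 2. MCM2, a subunit of the replicative helicase, went from 89.9 to 128 CPM, from 73.3 to 80.5 CPM and from 138 to 151 CPM in the first 3 pairs, and from 109 to 58.5 CPM in line 2 number 2. The proliferation marker MKI67 moved by 0.71, 0.55, 0.45 and -0.13. Replication-dependent histones had medians of 0.81 and 0.31 in line 1, 0.36 in line 2 number 1 and -1.03 in line 2 number 2 over 9 genes. No gene of these 2 lists therefore had one sign in all 4 pairs, and none was called for the difference between the lines. Without line 2 number 2, 4034 genes were higher and 3642 lower in the rescue of all 3 remaining pairs. The share of reads not assigned to a gene was 31.5% in the rescue library of that pair and 24.1 to 27.5% in the other 7, and its part in the result was not tested.

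**Figure D3:**
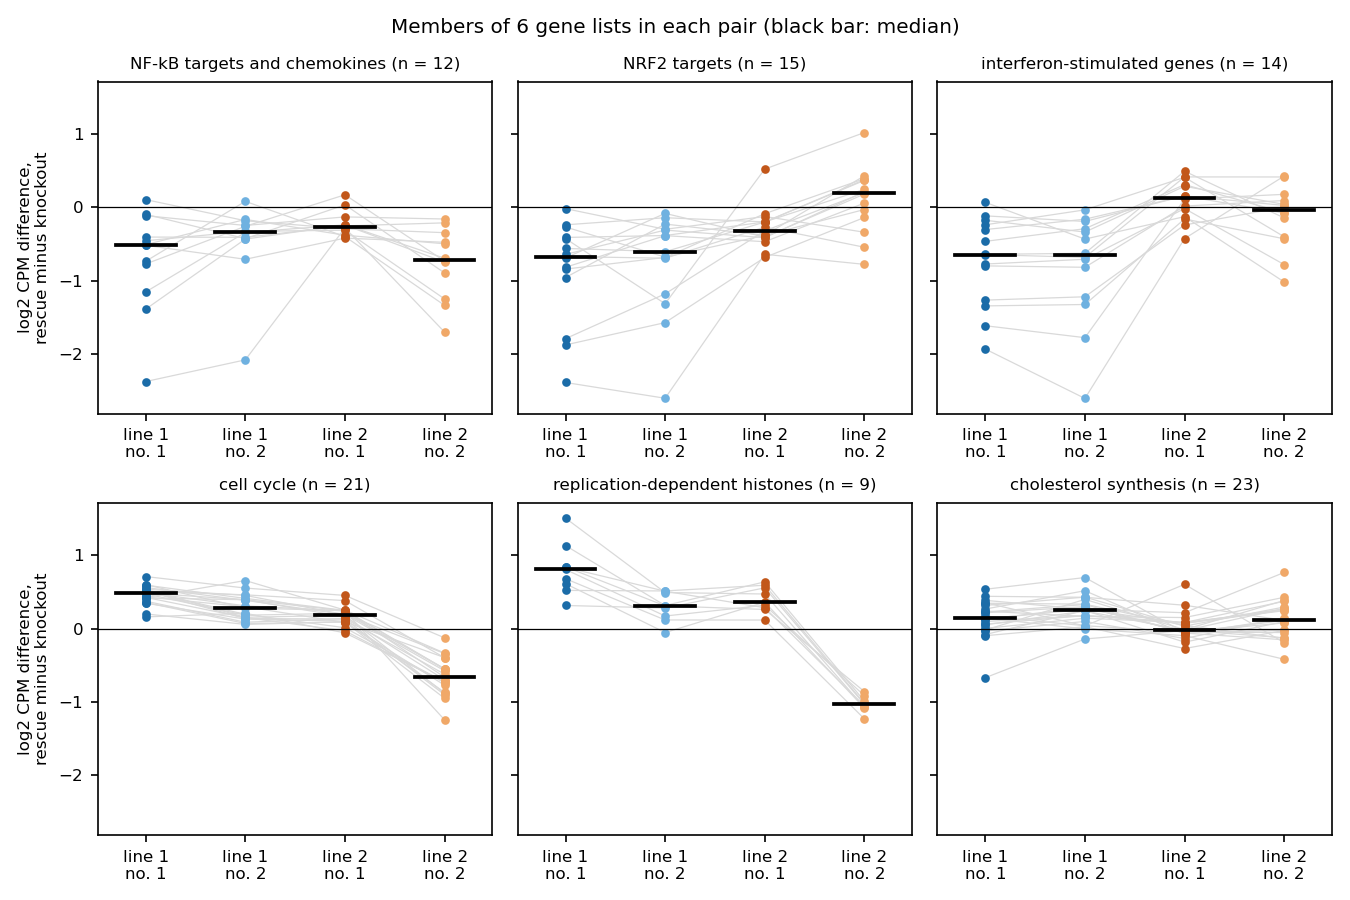
Difference in log2 CPM, rescue minus knockout, in each pair for the tested members of 6 gene lists (points, joined by gene), with the median as a black bar. Cell cycle and histone genes lie above 0 in most of the first 3 pairs and below 0 in line 2 number 2, and NF-kB targets lie mostly below 0 in all 4.

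Hepatocyte genes were mixed. Of 19 tested, 5 were higher in all 4 rescues and 1 lower, beside 11.9% and 12.5% of all genes, and DESeq2 called 4 of them higher, beside 1.31%. The 5 were CPS1, albumin (ALB), apolipoprotein B (APOB), transferrin (TF) and prothrombin (F2). The 1 lower was transthyretin (TTR), at -1.32 with DESeq2, which gave it no adjusted p. Over the 19 the median was -0.05, with 8 fold changes positive and 11 negative. ALB went from 28.7 to 50.5 CPM and from 25.4 to 65.1 CPM in line 1, and from 16.0 to 21.3 CPM and from 21.1 to 25.4 CPM in line 2 (0.71, adjusted p = 0.166). APOB, the scaffold of lipoproteins made by the liver, was at 10647 and 22037 CPM in the line 1 knockouts and 13979 and 28529.9 CPM in their rescues, but at 20.5 and 48.6 CPM against 39.8 and 116 CPM in line 2 (0.74, adjusted p = 0.157). The 2 lines thus differed far more in APOB than rescue and knockout did. In both pairs of line 1, 13 of the 19 hepatocyte genes were higher, beside 34.2% of all genes, and in both pairs of line 2, 10 were lower, beside 28%. Fewer cells of a type and less RNA per cell cannot be told apart in bulk libraries.

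Cholesterol synthesis genes were shifted by little. Of 23 tested, 8 were higher in all 4 rescues and 0 lower, beside 11.9% and 12.5% of all genes. The median was 0.15 and the range from -0.14 to 0.41, and 2 passed as higher with DESeq2, beside 1.31% of all genes. The largest was SREBF2, which encodes the transcription factor of the pathway, at 88.3, 112.9, 96.2 and 108 CPM in the knockouts and 115, 136, 112 and 184 CPM in their rescues (0.41, adjusted p = 0.173). Of the 23, 17 were higher and 1 lower in both pairs of line 1, and 8 and 6 in both pairs of line 2. Over all genes 34.2% were higher and 32.7% lower in both pairs of line 1, and 27.2% and 28% in those of line 2. The chaperones of the endoplasmic reticulum had 5 of 16 genes higher in all 4 rescues and 0 lower (median 0.07). Of these 16, 6 were higher and 5 lower in both pairs of line 1, and 11 and 0 in both of line 2.

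Lists of glucose metabolism and of the topics in the series title had members on both sides of 0. The background is again 11.9% of all genes higher and 12.5% lower in all 4 rescues. Of 19 glycolysis genes, 1 was higher and 4 lower in all 4 rescues (median -0.07): the liver pyruvate kinase PKLR was the higher one (0.52, adjusted p = 0.206), and PFKP, the muscle phosphofructokinase PFKM (-0.39), the pyruvate kinase PKM (-0.39) and the lactate dehydrogenase LDHB (-0.31) were lower. DESeq2 called PFKP and PFKM, 2 of the 19, as lower, beside 1.51% of all genes. Of 12 glucose transporters, 1 was higher and 1 lower (median -0.03), and of 7 genes of the pentose phosphate pathway 0 were higher and 1 lower (-0.03). Of 21 genes of the hypoxia response outside glycolysis, 1 was higher and 3 lower (-0.05), and of 6 regulators of HIF 0 and 1 (-0.03). DESeq2 called 2 of the 21 as lower, the carbonic anhydrase CA12 (-1.45, adjusted p = 0.134 in edgeR) and the lipase inhibitor ANGPTL4 (-0.56, adjusted p = 0.146 in edgeR). Of 16 Wnt and beta-catenin targets, 2 were higher and 2 lower (-0.02), and DESeq2 called 1 as higher, the transcription factor LEF1 (0.56, adjusted p = 0.151 in edgeR). CTNNB1, which encodes beta-catenin, went from 295 to 239 CPM and from 254 to 221 CPM in line 1, and from 508 to 474 CPM and from 439.6 to 245 CPM in line 2, so that most of its fold change of -0.36 (SE 0.12, adjusted p = 0.264) came from line 2 number 2. Of 13 liver cancer stem cell markers tested, 0 were higher and 3 lower in all 4 rescues (median -0.13). Those were CD44 (-1.30, adjusted p = 0.195), ICAM1 and BMI1 (-0.13), while PROM1, the gene of CD133, was higher in both rescues of line 1, from 26.8 to 50.9 CPM and from 25.2 to 46.4 CPM, and was between 0.384 and 0.567 CPM in line 2. DESeq2 called 3 of the 13, PROM1 as higher and CD44 and ICAM1 as lower. For each of these lists the DESeq2 calls stand beside 1.31% of all genes called higher and 1.51% called lower.

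The 2 lines responded to the rescue differently, and most of the genes that differed were lower in the rescues of line 1. The test of line 2 minus line 1 called 106 genes, 0.579% of those tested, 94 with a positive difference (0.514%) and 12 with a negative one (0.0656%), and 2015 had p under 0.05 before adjustment. Of the 106 genes, 94 were lower in both rescues of line 1, beside 32.7% of all genes. Over all 106, the median difference was -1.52 in line 1 and -0.01 in line 2. The 106 were selected on the difference between the lines, so these values describe the selected genes only. None of the 8 genes called for rescue against knockout was among them. Across the 18293 genes, the differences of the 2 pairs of line 1 had r = 0.50 with each other and those of line 2 r = 0.10, while pairs of different lines had r between 0.10 and 0.19, as a description over genes that share libraries and scaling. With the number left out of the model no gene passed in edgeR (671 at p under 0.05 before adjustment), and DESeq2 with the pair block called 301.

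**Figure D4:**
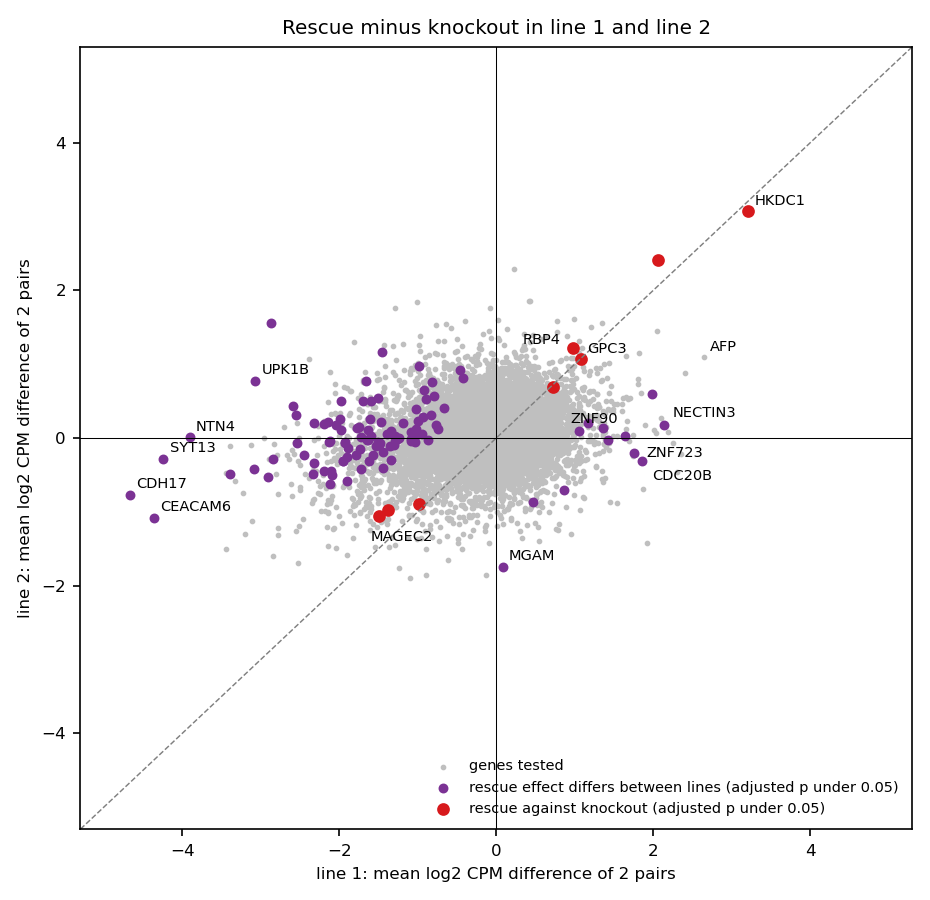
Mean difference in log2 CPM, rescue minus knockout, of the 2 pairs of line 1 (horizontal axis) and line 2 (vertical axis) for 18293 genes, with the called genes of both tests coloured and a dashed line of equality. HKDC1, RBP4 and GPC3 lie near the dashed line, and the genes that differ between lines spread to the left at values near 0 in line 2.

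Among genes with a mean of at least 2 CPM, the 5 largest positive line differences were in NTN4, SYT13, CDH17, UPK1B and CEACAM6, each lower in both rescues of line 1. NTN4, a netrin of the basement membrane, went from 13.97 to 0.801 CPM and from 6.38 to 0.438 CPM in line 1, and from 4.38 to 4.32 CPM and from 4.81 to 4.98 CPM in line 2 (line 2 minus line 1, 4.04, SE 0.27, adjusted p = 0.00381). CDH17, the liver-intestine cadherin, went from 20.8 to 1.12 CPM and from 17.0 to 0.438 CPM in line 1, and from 14.6 to 9.27 CPM and from 16.2 to 8.81 CPM in line 2 (3.82, SE 0.30, adjusted p = 0.00381). It was at 21.5 to 27.8 CPM in the controls, above every knockout and rescue library, and the line 1 rescues were the lowest. CEACAM6, an adhesion molecule of gut epithelium, went from 3.14 to 0.160 CPM and from 4.04 to 0.117 CPM in line 1, and from 12.02 to 6.89 CPM and from 14.9 to 5.78 CPM in line 2 (3.52, SE 0.41, adjusted p = 0.0116). CDH17 and CEACAM6 were the 2 genes that both differed between lines and were lower by 1.5-fold in each of the 4 pairs. SYT13, a synaptotagmin, was at 15.2 and 15.7 CPM in the line 1 knockouts and 1.04 and 0.584 CPM in their rescues (3.95, adjusted p = 0.00566). UPK1B, a uroplakin of urothelium, was lower in both rescues of line 1, from 8.30 to 1.36 CPM and from 5.23 to 0.409 CPM, and higher in both of line 2, from 1.42 to 2.92 CPM and from 1.13 to 1.65 CPM (3.79, adjusted p = 0.00968).

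KRT19 and ITGA6, outside the naming rule and chosen after their values were seen, also differed between the lines. KRT19, a keratin of bile duct cells, went from 9.07 to 0.961 CPM and from 7.19 to 0.555 CPM in line 1 and from 233 to 216 CPM and from 197 to 109 CPM in line 2 (2.92, adjusted p = 0.00871). ITGA6, the laminin-binding integrin subunit, went from 117 to 29.4 CPM and from 90.3 to 24.1 CPM in line 1, and from 72.8 to 59.9 CPM and from 97.0 to 76.0 CPM in line 2 (1.63, adjusted p = 0.00381). Its list, extracellular matrix and integrins, held 3 line differences among 17 tested genes, beside 0.579% of all genes, the others being its hemidesmosome partner ITGB4 and the laminin chain LAMB3. In that list 12 genes were lower in both rescues of line 1, beside 32.7% of all genes, and 7 in both of line 2, beside 28%.

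The 12 genes with the opposite sign included 5 named by the rule. NECTIN3, a cell adhesion protein of adherens junctions, went from 1.39 to 6.71 CPM and from 1.60 to 6.72 CPM in line 1, and from 25.8 to 38.1 CPM and from 24.98 to 21.6 CPM in line 2 (-1.996, SE 0.28, adjusted p = 0.0279). The rescue libraries of line 1 thus stayed below line 2 and below the controls, which were at 22.4 to 34.3 CPM. CDC20B was higher in both rescues of line 1, from 2.43 to 8.37 CPM and from 3.42 to 13.3 CPM, and lower in both of line 2, from 9.15 to 7.39 CPM and from 10.003 to 8.01 CPM (-2.18, adjusted p = 0.00718). MGAM, the maltase of the intestinal brush border, was lower in both rescues of line 2, from 1.79 to 0.441 CPM and from 1.08 to 0.343 CPM, and mixed in line 1 (-1.90, adjusted p = 0.0442). The zinc finger genes ZNF723 (-1.99, adjusted p = 0.038) and ZNF90 (-1.62, adjusted p = 0.0479) were higher in both rescues of line 1, ZNF90 going from 1.27 to 3.92 CPM and from 1.60 to 5.198 CPM.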

How the data were processed

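The authors deposited raw gene-level read counts, 1 file a library, made with STAR 2.6.0b on GRCh37, per the submitters' processing notes. Each file lists 57820 Ensembl identifiers after 4 lines of unassigned reads (23.2 to 31.5% of reads), which were left out. The stranded counts of column 4 were used, since their total was 19.8 to 21.1 times that of the other strand. Symbols came from a table of gene names and GENCODE release 29 (40029 identifiers). Identifiers without a symbol held 5.62% of the counts.

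The 8 libraries were fitted in R 4.3.3 with edgeR 4.0.16 (filterByExpr by group, TMM, quasi-likelihood test) with the pair as a block, p-values were adjusted by Benjamini-Hochberg over 18293 genes, and genes were called at adjusted p under 0.05. Pair differences are log2 CPM with a prior count of 2. Line differences come from an interaction term with 2 residual degrees of freedom. DESeq2 1.42.0 and the other fits were alternatives. Scripts were tested on simulated data. Libraries of a pair share a line: deviations from the group means correlated across genes at 0.73 to 0.80 within pairs. That can come from the line alone, so it does not check the pairing by number. The difference of number 2 minus number 1, knockout against rescue, correlated at 0.31 in line 1 and 0.54 in line 2. Under the DESeq2 fit with the pair as a replicate block 517 genes were called. A count of at most 3 in a library, up to 0.0876 CPM, is read as the floor, for counting error only.

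Named genes are the 15 largest called in each direction (named in the tables, mean level 2 CPM or more, one sign in all 4 pairs), filled up by smallest p, then called members of 39 gene lists (at most 4 each), the 5 largest line differences each way above 2 CPM, the hexokinases and CTNNB1. The members and lists were chosen with earlier results of these data known. Lists are described by counts and medians, with no set test. Of the 39 lists, those without a value in the text are summarised in the closing section.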

Additional observations from a re-analysis of the deposited data

Results flagged for a closer look

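The rescue effect differed between the lines, by the interaction test, for the 10 genes named for it, the 5 largest in each direction among called genes with a mean of at least 2 CPM. Line 2 minus line 1, on the log2 scale, it was 4.04 for NTN4, 3.95 for SYT13, 3.82 for CDH17, 3.79 for UPK1B, 3.52 for CEACAM6, -1.62 for ZNF90, -1.90 for MGAM, -1.99 for ZNF723, -1.996 for NECTIN3 and -2.18 for CDC20B.

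In 3 cases 1 pair lay far from the other 3 by Dixon's criterion for 4 values. GOLM1 was lower in rescue by the least in line 1 number 2 (-0.32), and MAGEA1 by the least in line 2 number 1 (-0.76). The median of the glucose transporters was 0.19 in line 2 number 1 and negative in the other 3 pairs. Chance alone flags about 1 in 20 groups, and 44 genes and 36 lists were examined.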

How the results depend on the processing

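The number of genes called depended on the model. Against 8 genes with the pair block, edgeR called 0 with no replicate block in 2 groups (372 at p under 0.05 before adjustment) and 0 with 3 groups of all 12 libraries (473), 2 with 5 groups, 3 with the line as a block without the number, 29 with the 4 libraries on whose state both label fields concur, and 1034 with no filter on low counts. DESeq2 with the pair as a replicate block called 517. In the 4 libraries on whose state both label fields concur, every knockout is number 1 and every rescue number 2. Rescue and number cannot be told apart there. Leaving out 1 pair gave 0 to 61 genes. HKDC1 had a log2 fold change of 3.16 with no replicate block (adjusted p = 1) and 3.15 with 3 groups (adjusted p = 0.156), and 2.98 to 3.36 with 1 pair left out. RLE scaling and unstranded counts each called 7 genes, and a filter by the pair design, added after the data were seen, called the same 8.

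The line difference, 106 genes with the pair block, was called for 0 genes in 4 groups of 2 with no replicate block, 301 with DESeq2 and the replicate block and 910 with no filter. Added after the data were seen were unstranded counts (180) and leaving out 1 pair (62 to 1798). With 1 pair left out, 4 pairs becoming 3, genes moving the same way numbered 5895 to 7676 in place of 4466, 2904 to 4034 being higher and 2922 to 3642 lower. The genes at least 1.5-fold higher in each pair numbered 79 with no filter and 60 to 87 with 1 pair left out, and those lower 164 and 123 to 270; fewer pairs make the rule easier to meet. Elsewhere the cause was not tested.

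Over the alternatives, named genes kept their sign for rescue against knockout except in the 4 libraries with concurring labels, where GOLM1 was at 0.0295 and HK1 at 0.23. Depth limits only rare genes: 3 counts are 0.0414 to 0.0876 CPM.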

Other observations

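The remaining gene lists gave the following counts of members with one sign in all 4 pairs. Over all genes 11.9% were higher and 12.5% lower in all 4 rescues. Of 18 lysosome and autophagy genes 1 was higher in rescue and 6 lower (median -0.14), of 13 p53 targets 0 and 4 (-0.07), of 12 YAP and TAZ targets 4 and 2 (0.15), of 22 genes of the ATF4 stress response 0 and 2 (-0.18), and of 13 mitochondrially encoded genes 1 and 3 (-0.14). Of 24 nuclear-encoded respiratory chain genes 3 were higher and 1 lower (-0.01). Yet 18 were higher in both rescues of line 1, beside 34.2% of all genes, and 15 lower in both of line 2, beside 28%. Of 15 genes of gluconeogenesis and pyruvate handling 3 were higher and 0 lower (0.07), of 13 glycogen genes 1 and 1 (0.01), of 7 hexosamine genes 0 and 1 (-0.01), and of 15 genes of the mitochondrial outer membrane 0 and 3 (-0.03). Fatty acid synthesis (2 higher and 1 lower of 15, median 0.01) and fatty acid oxidation (2 and 2 of 16, 0.02) stayed near 0. So did the beta-catenin destruction complex (1 and 1 of 11, -0.0048) and heat shock genes (0 and 1 of 11, -0.01). Immediate early genes (0 and 1 of 9, -0.08) had pair medians of opposite sign. These were -0.32 and -0.18 in line 1, -0.03 in line 2 number 1 and 0.77 in line 2 number 2. Mesenchymal markers had 2 higher and 1 lower of 10 (0.08), and epithelial markers 0 and 0 of 11 (-0.18).

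Of 8 tested markers of bile duct cells and liver progenitors, 1 was higher in all 4 rescues (CFTR) and 2 lower (KRT19 and CLDN4), beside 11.9% and 12.5% of all genes. The pair medians were -1.11 and -0.96 in line 1 and 0.09 and -0.05 in line 2. Of the 5 members of the fibroblast list that were tested, 1 was higher and 2 lower. A partly different set of 5, COL1A1, COL1A2, PDGFRB, LUM and DCN, had a summed level of 4.87 to 9.26 CPM in knockout. In rescue it was 4.28 to 9.26 CPM. Of 2 blood and 2 endothelial markers tested, 1 of each was lower. LYZ, the blood marker at a high level, went from 758 to 337 CPM and from 613 to 352 CPM in line 1, and from 404 to 380.0 CPM and from 373 to 271 CPM in line 2.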
